A study of Mus musculus with 1104 samples.

Results

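The genes described here are 9 genes of hepatic glucose production and insulin signalling, read by name from the 20646 gene symbols of the count table: Pklr, Pck1, G6pc, Fbp1, Insr, Irs1, Irs2, Foxo1 and Trib3. All 9 were found, and all 9 passed the filter on low counts in liver, epididymal fat and small intestine, 7 in inguinal fat and 6 in brown fat, gastrocnemius and soleus. The mice were wild-type males of the C57BL/6 strain (C57BL/6J in the design text), given a high-fat diet (HFD, D12492, with 60% of its energy from fat) from 8 weeks of age. Poly(A) RNA of 13 organs was sequenced, with 6 libraries from 6 mice at each time point. These were 0, 1 and 3 days, 1 week, 10 days and 2, 3, 4, 5, 6, 7, 8, 10 and 12 weeks, and for epididymal fat also 16 and 20 weeks. The group at 0 days stands for the onset of the diet. No mice off the diet and no insulin or glucose values were analysed here, so time on the diet, age and day of dissection cannot be told apart. The labels give neither the hour of dissection nor whether the mice had been fasted.

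Glucose made by the liver from lactate, glycerol and amino acids is formed in steps that bypass the one-way reactions of glycolysis. Pck1 encodes the cytosolic phosphoenolpyruvate carboxykinase that opens this route, Fbp1 the fructose-1,6-bisphosphatase further on, and G6pc the glucose-6-phosphatase that releases free glucose. Pklr encodes the liver pyruvate kinase that runs the opposite way, at the end of glycolysis. Insulin binds the receptor encoded by Insr, and the adaptors Irs1 and Irs2 carry its signal to the kinase Akt. Akt keeps the transcription factor Foxo1, an activator of Pck1, G6pc and Irs2, out of the nucleus. Trib3 encodes a pseudokinase that has been described as an inhibitor of Akt and is a target of the stress factor ATF4.

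The genes lie on 6 chromosomes (GRCm38, GENCODE M21, all protein coding). Pklr is on the plus strand at chr3:89136142-89146784, Pck1 on the plus strand at chr2:173153048-173159273, G6pc on the plus strand at chr11:101367561-101377903, and Fbp1 on the minus strand at chr13:62864753-62888282. Insr lies on the minus strand at chr8:3122061-3279617, Irs1 on the minus strand at chr1:82233101-82291416, Irs2 on the minus strand at chr8:10984681-11008458, Foxo1 on the plus strand at chr3:52268336-52353221 and Trib3 on the minus strand at chr2:152337422-152344032. Pklr overlaps Hcn3 on the opposite strand over 711 bases, and Hcn3, a channel gene, followed Pklr across the 84 liver libraries (r = 0.97 on log2 CPM). The library kit kept the strand, but no source used here states the strand setting of the counting. Reads from the shared stretch may therefore not be told apart.

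Levels are CPM, the counts of a gene relative to the total of its library, scaled by TMM factors within an organ. Totals were 8553245 to 27036098 counts per library over the 7 organs followed in time (median 13508059), and 9835902 to 15864271 in liver. Changes are log2 differences, later minus earlier, with their standard error (SE), from edgeR's quasi-likelihood test on all libraries of an organ, and "rose" and "fell" are used where the Benjamini-Hochberg adjusted p over all genes of the comparison was under 0.05. Defining markers were present in the libraries of each of these organs, but 50 of the 600 libraries carried a list of marker genes at over 8 times its median in the organ and over 30 CPM (1 in liver, 12 in epididymal fat, 11 in inguinal fat, 8 in brown fat, 7 in gastrocnemius, 11 in soleus and 0 in small intestine). Of these 4 were looked at singly. Of the fat libraries at 3 days, the library labelled epididymal fat, replicate 2, had a summed level of 4 mesothelium and epididymis markers of 0.291 CPM, against 39.0 to 119 CPM in the other 5 libraries. The library labelled inguinal fat, replicate 2, had 115 CPM against 0.0743 to 0.525 CPM. The 0-day library of epididymal fat, replicate 1, had a hepatocyte marker sum of 1813 CPM, and the 0-day library of gastrocnemius, replicate 2, an adipocyte marker sum of 877.5 CPM and a B cell sum of 55.8 CPM. Adipocyte sums in gastrocnemius were also high at 1 day in replicate 4 (705 CPM, with a B cell sum of 41 CPM) and in 4 libraries at 2, 3 and 10 weeks (1194 to 1465 CPM, against a median of 286 CPM over all 84). Results named here that rest on the 4 libraries, or lose their call without all 50, are given with and without them.

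At 0 days the 4 enzyme genes were tissue-restricted and the signalling genes were not. By library totals, G6pc averaged 486 ± 186 CPM in liver (SD, n = 6), 45.4 ± 10.7 CPM in small intestine and 2.25 ± 0.988 CPM in epididymal fat, 3 levels that did not overlap, and at most 0.168 CPM in each of the other 10 organs. Fbp1 had 882 ± 64.8 CPM in liver, 42.2 ± 7.87 CPM in small intestine and 23.5 ± 9.55 CPM in epididymal fat, of which the last 2 overlapped. Pklr averaged 319 ± 19.8 CPM in small intestine and 265 ± 111 CPM in liver, which overlapped and changed order with TMM factors over all organs, then 26.2 ± 14.3 CPM in epididymal fat. Pck1 was highest in brown fat (5529 ± 653 CPM), followed by liver (3718 ± 975), inguinal fat (3235 ± 817), epididymal fat (2611 ± 438) and small intestine (828 ± 315), and only the step from epididymal fat to small intestine separated neighbours among these 5. In gastrocnemius it had 17.8 ± 24.6 CPM, of which replicate 2 had 67.7 CPM and the other 5 libraries 7.82 ± 3.25 CPM, and in pituitary and the brain regions at most 0.216 CPM.

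The receptor gene Insr was expressed in all 13 organs, from 38.5 ± 5.69 CPM in pancreas to 178 ± 10.2 CPM in liver, and its liver libraries did not overlap those of epididymal fat, next in order at 150 ± 14.7 CPM. Irs1 was highest in gastrocnemius (86.8 ± 17.4 CPM) and lowest in small intestine (2.72 ± 0.535 CPM); liver, at 20.9 ± 3.54 CPM, ranked 11 of 13. Irs2 had 151 ± 125 CPM in brown fat, 144 ± 6.82 CPM in hypothalamus and 24.7 ± 9.09 CPM in liver. Foxo1 had 206 ± 72.6 CPM in brown fat, 160 ± 41.1 CPM in inguinal fat and 65.4 ± 21.6 CPM in liver, each overlapping its neighbours. Trib3 was low throughout, at 18.6 ± 2.74 CPM in small intestine and 10.9 ± 2.48 CPM in liver, which overlapped. Its lowest level was 0.529 ± 0.239 CPM, in olfactory bulb.

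In liver, over the 13 later time points, 8 of 117 member tests against 0 days were higher and 15 lower at an adjusted p under 0.05 in edgeR, that is 23 of 117, where 17.8% of all gene tests in liver passed (9.27% to 42% of genes at single time points). At 12 weeks Pklr and Fbp1 rose and Insr and Irs2 fell, which is 4 of the 9 genes where 42% of all 12592 genes passed (20.6% higher, 21.4% lower). Over any time point 6 of 9 passed the F test, where 57.5% of all genes did; the exceptions were G6pc, Irs1 and Foxo1. The share of members that moved was thus near that of all liver genes.

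**Figure D1:**
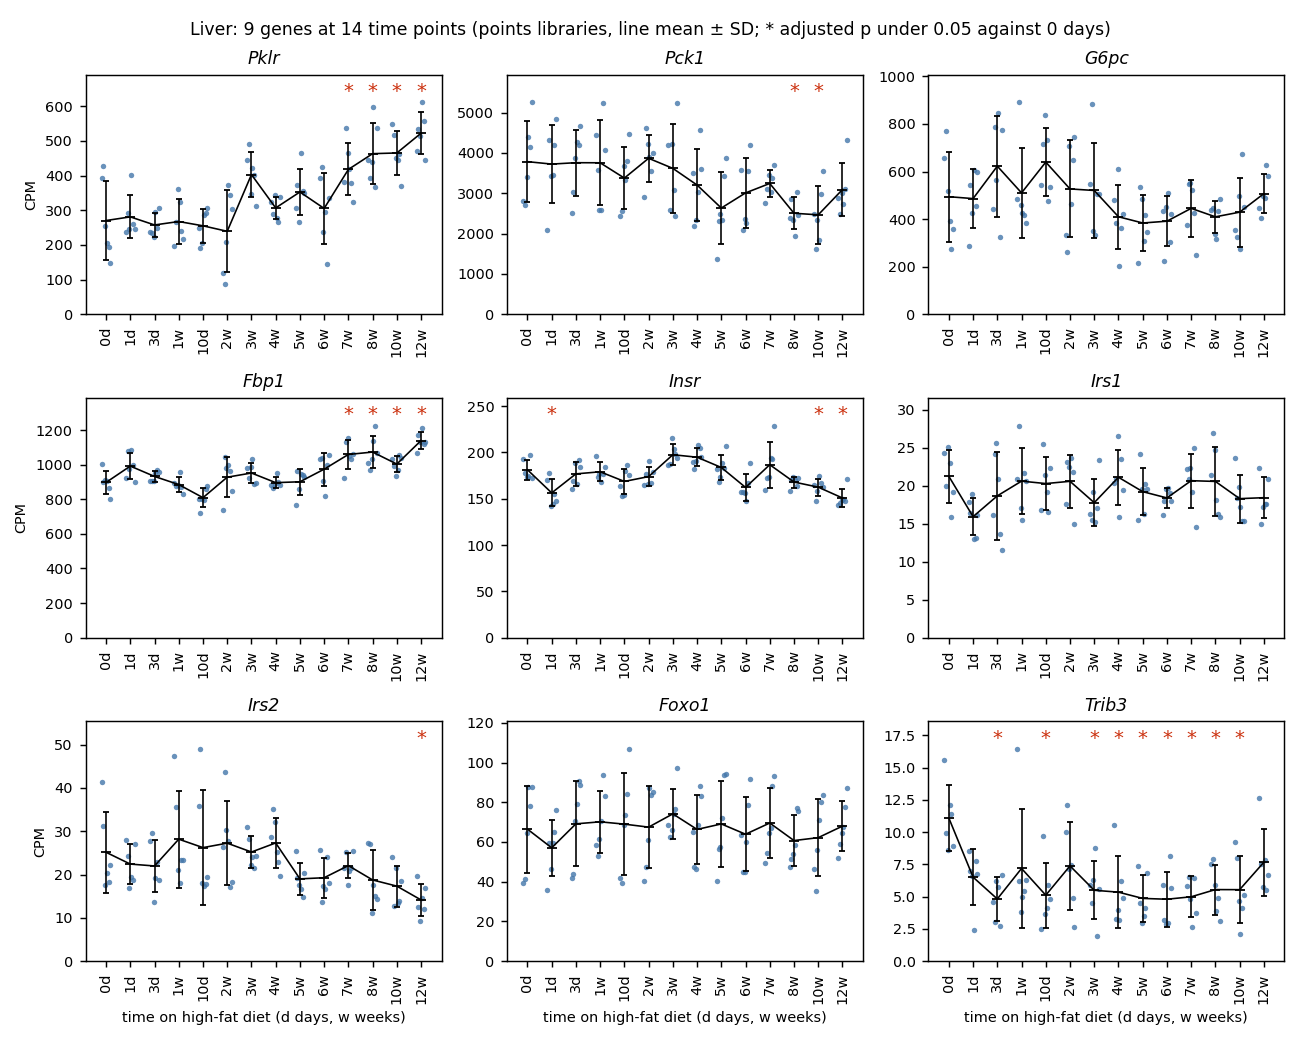
CPM of the 9 genes in liver (vertical axes, each from 0) at the 14 time points (horizontal axes, evenly spaced). Points are libraries, lines join means with SD over 6 libraries, and asterisks mark time points past an adjusted p of 0.05 against 0 days; Pklr and Fbp1 carry asterisks from 7 weeks on, Trib3 at 9 time points and Foxo1 at none.

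Pklr, the glycolytic member, rose late. It had 443 to 612 CPM at 12 weeks (median 525) and 149 to 427 CPM at 0 days (median 229), so that all 12-week libraries lay above all 0-day libraries. Of the 9 genes 3 had groups without overlap (Pklr, Fbp1 and Insr), as had 20.3% of all genes. The mean was 522 ± 60.8 CPM at 12 weeks against 270 ± 114 CPM at 0 days (SD, n = 6 each), a log2 change of 0.95 ± 0.21 (SE; adjusted p = 0.00015). The level stood at 239 to 281 CPM on average up to 2 weeks, was 403 ± 65.1 CPM at 3 weeks and 307 ± 32.8 CPM at 4 weeks without passing the test, and passed it at 7, 8, 10 and 12 weeks. Set against 1 week in place of 0 days, the same 4 genes passed at 12 weeks (40.2% of all genes did), Pklr being higher by 0.97 ± 0.21 (adjusted p = 0.00013). Hcn3, which may share its reads, averaged 174 ± 25 CPM at 12 weeks against 101 ± 56.3 CPM at 0 days.

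Fbp1 rose at the same 4 time points as Pklr. Its libraries ran from 1068 to 1214 CPM at 12 weeks (median 1131), above the 801 to 1003 CPM at 0 days (median 901). The means of 1139 ± 49 CPM at 12 weeks and 897 ± 65.8 CPM at 0 days differed by 0.34 ± 0.06 on the log2 scale (adjusted p = 4.3e-06).

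Pck1 and G6pc, the steps most often read as markers of gluconeogenesis, did not rise at any time point. Pck1 ran from 2476 to 4332 CPM at 12 weeks (median 2947) and from 2696 to 5260 CPM at 0 days (median 3780), with overlap, and its change of -0.29 ± 0.21 did not pass (adjusted p = 0.26). It fell at 8 weeks, by 0.60 ± 0.21 on the log2 scale (adjusted p = 0.02), and at 10 weeks, by 0.62 ± 0.21 (adjusted p = 0.02). G6pc had 403 to 628 CPM at 12 weeks (median 492) and 273 to 768 CPM at 0 days (median 456); the 12-week libraries fell inside the range of the 0-day libraries, and none of its 13 comparisons passed (log2 changes of -0.37 to 0.37). With an SE of 0.25 on the 12-week change, a change of about that size would not have been detectable.

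Insr, the receptor, fell at 1 day, 10 weeks and 12 weeks (adjusted p = 0.049 at 10 weeks, and 0.050 without 1 library with a high marker sum). It had 143 to 171 CPM at 12 weeks (median 148) and 172 to 197 CPM at 0 days (median 176), without overlap, and means of 151 ± 10.1 CPM at 12 weeks and 181 ± 10.9 CPM at 0 days, a change of -0.27 ± 0.06 (adjusted p = 0.00026). At 1 day it averaged 156 ± 14.7 CPM (-0.21 ± 0.06, adjusted p = 0.015), and at 3 weeks 197 ± 11 CPM, a level that did not pass. Against 1 week the level at 12 weeks was also lower (-0.25 ± 0.06, adjusted p = 0.00068).

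Of the 2 adaptor genes, Irs2 fell and Irs1 did not pass the test. Irs2 had 9.28 to 19.7 CPM at 12 weeks (median 13.5) and 17.5 to 41.5 CPM at 0 days (median 21.2), with 5 of the 6 libraries at 12 weeks below every library at 0 days. The mean was 14.1 ± 3.75 CPM at 12 weeks and 25.1 ± 9.4 CPM at 0 days (-0.82 ± 0.24, adjusted p = 0.0035), and 12 weeks was the one time point at which Irs2 passed the test. Irs1 had 14.9 to 22.3 CPM at 12 weeks (median 17.6) and 15.9 to 25.2 CPM at 0 days (median 21.5), overlapping, with a change of -0.21 ± 0.15 (adjusted p = 0.28); it passed at none of the 13 time points. Whether the 2 adaptors differed from each other in their change was not tested.

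Foxo1, the transcription factor at the end of the pathway, passed the test at no time point. It ran from 52.2 to 87.2 CPM at 12 weeks (median 66.1) and from 39.5 to 87.9 CPM at 0 days (median 71.4), with means of 68 ± 12.7 CPM at 12 weeks and 66.5 ± 22 CPM at 0 days, a change of 0.03 ± 0.23 (adjusted p = 0.93). Over all 14 time points its F test gave an adjusted p of 0.98, while single libraries spread widely within a time point, as at 0 days.

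Trib3, the pseudokinase, fell early. It averaged 4.82 ± 1.67 CPM at 3 days against 11.1 ± 2.57 CPM at 0 days (-1.19 ± 0.33, adjusted p = 0.011), and it passed the test at 9 of 13 time points (3 days, 10 days and each from 3 to 10 weeks), with changes of -0.99 to -1.19. At 12 weeks it had 5.54 to 12.6 CPM (median 7.11) against 8.62 to 15.5 CPM at 0 days (median 10.7), with 5 of 6 libraries below all of those at 0 days, and the change of -0.53 ± 0.31 did not pass (adjusted p = 0.18; it passed in a fit of the 2 groups alone, adjusted p = 0.043). The gene had 606 reads in the 6 libraries at 12 weeks and 783 at 0 days, so counting error adds to the spread.

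Around the 9 genes, other genes of the same routes were described by lists, whose counts stand beside 20.6% higher and 21.4% lower among all liver genes at 12 weeks. Of 18 further enzymes and carriers of glucose output that were tested in liver, 8 rose and 2 fell at 12 weeks (median log2 change 0.13, against 0.01 over all genes). Pcx, the pyruvate carboxylase that feeds Pck1, rose by 0.82 ± 0.09 to 953 ± 58 CPM at 12 weeks, against 539 ± 19.1 CPM at 0 days. Ldha (0.67 ± 0.07) and Gpi1 (0.45 ± 0.08), which serve both directions, rose too. Of 20 genes of glycolysis and glycogen 12 rose and 1 fell (median 0.36), among them Pdk4, an inhibitor of pyruvate oxidation (2.02 ± 0.26), Eno1 (0.60 ± 0.08) and Tpi1 (0.27 ± 0.05). Of 15 genes that SREBP1c and ChREBP, the lipogenic factors driven by insulin and glucose, are known to activate, 12 rose and 1 fell (median 0.84): Fasn, the fatty acid synthase, had a change of 1.70 ± 0.22, Thrsp of 1.56 ± 0.29, Acly of 0.99 ± 0.16 and Gpam of 0.56 ± 0.10. Pklr is itself a ChREBP target; the lists were picked with earlier results of these data known, and their counts are descriptions.

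Signalling genes were called about as often as other liver genes, of which 42% passed. Of 27 insulin signalling genes tested in liver at 12 weeks, 4 rose and 9 fell, with a median of -0.04. Among those that fell were Rictor, a subunit of the mTORC2 kinase (-0.82 ± 0.08), Pdpk1, the kinase that activates Akt (-0.56 ± 0.07), and Grb14, an inhibitor of the receptor (-0.39 ± 0.08). Of 16 regulators of glucose output 1 rose and 4 fell (median -0.13), the 4 being Nr3c1, the glucocorticoid receptor (-0.44 ± 0.07), Sirt1 (-0.51 ± 0.11), Hnf4a (-0.42 ± 0.09) and Crtc2 (-0.34 ± 0.08). Of 16 ATF4 targets other than Trib3, 9 rose and 0 fell at 12 weeks (median 0.50), with Gdf15 at 2.44 ± 0.47, Atf3 at 2.77 ± 0.46, Nupr1 at 1.87 ± 0.31 and Shmt2 at 0.31 ± 0.05, while Trib3 had -0.53 ± 0.31 and did not pass. Of 11 genes that rise in fasting 5 rose and 0 fell, led by Vnn1 (2.96 ± 0.30) and Fgf21 (3.86 ± 0.48).

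Markers of other cells moved beside these values. The sum of 8 hepatocyte markers was 84506 to 103870 CPM at 12 weeks against 98886 to 114852 CPM at 0 days, and that of 7 stellate cell and fibroblast markers 238 to 517 CPM at 12 weeks against 219 to 288 CPM at 0 days. The adipocyte list, of which 7 of 8 genes had counts at 12 weeks and 6 at 0 days, summed to 116 to 218 CPM at 12 weeks against 29.8 to 33.3 CPM at 0 days. The enterocyte list, which holds genes that liver also expresses, summed to 5421 to 9330 CPM at 12 weeks, with Sis, Lct and Alpi at 0, against 2119 to 2871 CPM at 0 days, with Sis at 0. In bulk tissue, fewer cells of a type and less RNA per cell cannot be told apart. Of 15 clock genes 1 rose and 6 fell at 12 weeks, near the 42% called among all genes (Nr1d2 -0.53 ± 0.06, Per2 0.99 ± 0.14, Clock -0.59 ± 0.10, Tef -0.32 ± 0.07). The part of cell mixture and of clock time in the members' changes was not tested.

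The regions before the transcription starts were searched on both strands for TGTTTAC and TGTTTTG, letters bound by forkhead factors such as Foxo1, for the cAMP response element TGACGTCA and for the E-box CACGTG. RefSeq gave a start for 8 of the 9 genes (GRCm38.p6, with 9 entries, as Pklr has 2 starts). These starts do not all match the gene spans given above, and positions count from the RefSeq starts. The Irs2 window begins at 11008930, away from the gene end at 11008458. The G6pc window ends at 101367715, past the gene start at 101367561. In the 250 bases before the start, Irs1 and Irs2 held CACGTG next to TGTTTTG, and G6pc held TGTTTTG 174 bases before its RefSeq start. TGTTTAC and TGACGTCA were found in none. Only these exact letters were searched, so near spellings were missed, such as TTACGTCA in the window of Pck1. The search therefore cannot show that a cAMP response element is absent. Over all 32851 promoters in the table, counted from 250 bases before to 50 after the start, 6.02% held CACGTG, 5.56% TGTTTTG, 3.17% TGTTTAC and 1.55% TGACGTCA. The 2 adaptor promoters are shown because they held both CACGTG and TGTTTTG. Both genes fell in epididymal and brown fat at 12 weeks. So did Pck1 and Foxo1, whose windows held none of these exact spellings, and Insr, which had no start. Capitals mark the motifs, and positions count back from the start. Irs2 holds CACGTG at -44 and TGTTTTG at -37, and Irs1 holds CACGTG at -115 overlapping TGTTTTG at -111, and TGTTTTG again at -32. The windows are chr8:11008930-11009179 for Irs2 and chr1:82291440-82291689 for Irs1, both on the minus strand and given 5′ to 3′ along the gene.
Irs2: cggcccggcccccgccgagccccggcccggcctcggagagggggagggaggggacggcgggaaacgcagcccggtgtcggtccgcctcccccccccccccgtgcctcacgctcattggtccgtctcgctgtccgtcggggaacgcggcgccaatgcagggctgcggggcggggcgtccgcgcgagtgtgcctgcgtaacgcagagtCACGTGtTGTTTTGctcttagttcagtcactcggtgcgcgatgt
Irs1: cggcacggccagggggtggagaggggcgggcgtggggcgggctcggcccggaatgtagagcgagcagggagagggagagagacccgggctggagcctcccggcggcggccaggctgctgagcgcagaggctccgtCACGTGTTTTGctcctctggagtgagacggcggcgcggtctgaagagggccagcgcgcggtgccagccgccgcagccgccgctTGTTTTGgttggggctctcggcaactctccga
These matches describe letters in the windows and were not tied to binding or to the changes.

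In epididymal fat, a visceral depot beside the epididymis, 69 of 135 member tests against 0 days passed, 68 of them lower, where 45.2% of all gene tests there passed; at 12 weeks 8 of 9 genes fell, where 60.4% of all genes passed and 29.3% fell. The heat map of changes shows these members darkening in epididymal fat toward the later weeks.

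**Figure D2:**
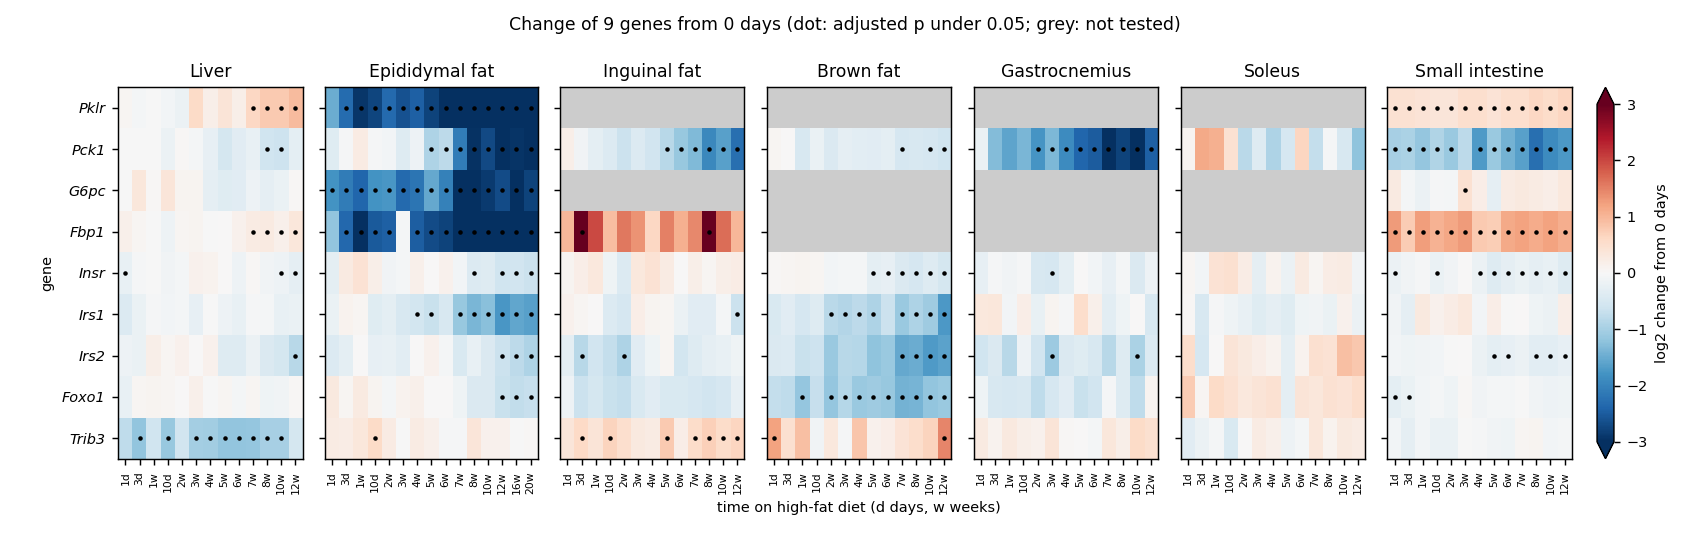
Log2 change from 0 days (colour, blue lower and red higher, scale limited to 3 either way) for the 9 genes (down the side) at each later time point (across) in 7 organs (panels). Dots mark an adjusted p under 0.05 and grey marks genes not tested; of the member tests, 23 of 117 carry dots in liver, 69 of 135 in epididymal fat and 0 of 78 in soleus.

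Pck1, which in fat cells feeds the making of glycerol for triglycerides, did not pass the test up to 4 weeks and then fell. It had 78.4 to 283 CPM at 12 weeks (median 177) and 1841 to 3239 CPM at 0 days (median 2386), means of 178 ± 66.5 CPM at 12 weeks and 2421 ± 487 CPM at 0 days, a change of -3.77 ± 0.37 (adjusted p = 1.1e-14). It passed the test at 5 weeks and at every later time point, and at 20 weeks it still averaged 225 ± 60.1 CPM (-3.43 ± 0.37). Without replicate 1 of 0 days the 6-week call was lost (-0.70 ± 0.35, adjusted p = 0.098) and the others stayed; without all libraries with high marker sums those at 5 weeks (adjusted p = 0.058) and 6 weeks (adjusted p = 0.12) were lost.

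Irs1 fell at 4, 5 and 7 weeks and at each later time point. Its libraries ran from 15.9 to 28.5 CPM at 12 weeks (median 21.8) and from 41.7 to 103 CPM at 0 days (median 68.2), without overlap, as for 6 of the 9 genes and 40.8% of all genes (-1.75 ± 0.22, adjusted p = 1.3e-10). Insr had 59.5 to 110 CPM at 12 weeks (median 95.7) and 120 to 150 CPM at 0 days (median 143), a change of -0.59 ± 0.18 (adjusted p = 0.0044). Foxo1 averaged 69.2 ± 16.9 CPM at 12 weeks and 109 ± 30.1 CPM at 0 days, with overlapping libraries (-0.66 ± 0.22, adjusted p = 0.0074). Irs2 averaged 53.4 ± 11.1 CPM at 12 weeks and 82.9 ± 26.2 CPM at 0 days, also overlapping (-0.63 ± 0.27, adjusted p = 0.035). The Irs2 call was lost without replicate 1 of 0 days (-0.52, adjusted p = 0.10). Without all libraries with high marker sums it was lost as well (-0.59, adjusted p = 0.091), with those of Irs2 at 16 weeks, Irs1 at 4 and 5 weeks and Insr at 8 weeks. Without replicate 1 of 0 days the calls lost were also those of Irs1 at 4 weeks (adjusted p = 0.11), G6pc at 5 weeks (adjusted p = 0.059) and Insr at 8 weeks (adjusted p = 0.062). Pklr then passed at 1 day (-1.70 ± 0.58, adjusted p = 0.027). Trib3 averaged 8.38 ± 1.2 CPM at 12 weeks and 7.63 ± 1.01 CPM at 0 days (0.13 ± 0.17, adjusted p = 0.52).

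The 3 liver enzymes were also detected in epididymal fat at 0 days, at a small share of their liver level, and were lower within days. Pklr had 0.599 to 2.09 CPM at 12 weeks (median 1.8) and 4.97 to 45.1 CPM at 0 days (median 25), a change of -3.98 ± 0.65 (adjusted p = 1.6e-07), and it passed from 3 days on. Fbp1 averaged 1.25 ± 0.482 CPM at 12 weeks and 21.7 ± 8.9 CPM at 0 days (-4.10 ± 0.70). G6pc averaged 0.317 ± 0.113 CPM at 12 weeks and 2.11 ± 1.04 CPM at 0 days (-2.69 ± 0.60), resting on 25 reads in the 6 libraries at 12 weeks and 212 at 0 days. G6pc passed at all 15 later time points, Pklr at 14 and Fbp1 at 13; the 1-day call of G6pc (-1.78 ± 0.56, adjusted p = 0.017) was the only one among the 9 genes at that day. Without all libraries with high marker sums G6pc did not pass at 1 day (-1.71, adjusted p = 0.053), 3 days, 10 days, 2 weeks and 5 weeks, and the member calls in epididymal fat numbered 59. Hcn3, the neighbour of Pklr, averaged 0.608 ± 0.184 CPM at 12 weeks and 6.1 ± 1.85 CPM at 0 days.

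Some sums of cell markers fell beside these 3 genes, some rose and some overlapped between 12 weeks and 0 days. Their part was not tested. The 0-day library with the hepatocyte signal had the lowest Pklr of its group (4.97 CPM) and the lowest sum of the epithelial bile duct list (Krt7, Krt19, Epcam, Sox9 and Spp1, the last also made by macrophages; 16.1 CPM), while the 0-day replicate 3 had the highest of both (45.1 CPM and 287 CPM). The sum of this list was 71.3 to 249 CPM at 12 weeks against 16.1 to 287 CPM at 0 days, and that of the mesothelium and epididymis list 43.7 to 76.2 CPM at 12 weeks against 45.1 to 178 CPM at 0 days. At 3 days the library labelled epididymal fat, replicate 2, with nearly none of these markers, had 0 reads of Pklr and 0.218 CPM of Fbp1. Without it the 3-day changes were -2.07 ± 0.58 for Pklr, -2.15 ± 0.65 for Fbp1 and -1.90 ± 0.59 for G6pc, and all 3 still passed. The enterocyte list, which holds genes that liver expresses too, fell without overlap beside them, to 2.57 to 4.45 CPM at 12 weeks (Sis and Alpi at 0) and 4.88 to 20.1 CPM at 1 day (Fabp2, Sis and Alpi at 0), against 22 to 65.6 CPM at 0 days (Sis at 0); its highest 0-day sum was that of replicate 1, and the other 5 had 22 to 41.7 CPM. Smooth muscle markers summed to 141 to 240 CPM at 12 weeks against 574 to 722 CPM at 0 days, also without overlap. Hepatocyte markers summed to 3.41 to 5.78 CPM at 12 weeks and, without replicate 1, to 9.6 to 19.7 CPM at 0 days. Adipocyte markers summed to 12541 to 20574 CPM at 12 weeks against 29017 to 42062 CPM at 0 days, and macrophage markers to 3156 to 6725 CPM at 12 weeks against 825 to 1205 CPM at 0 days.

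**Figure D3:**
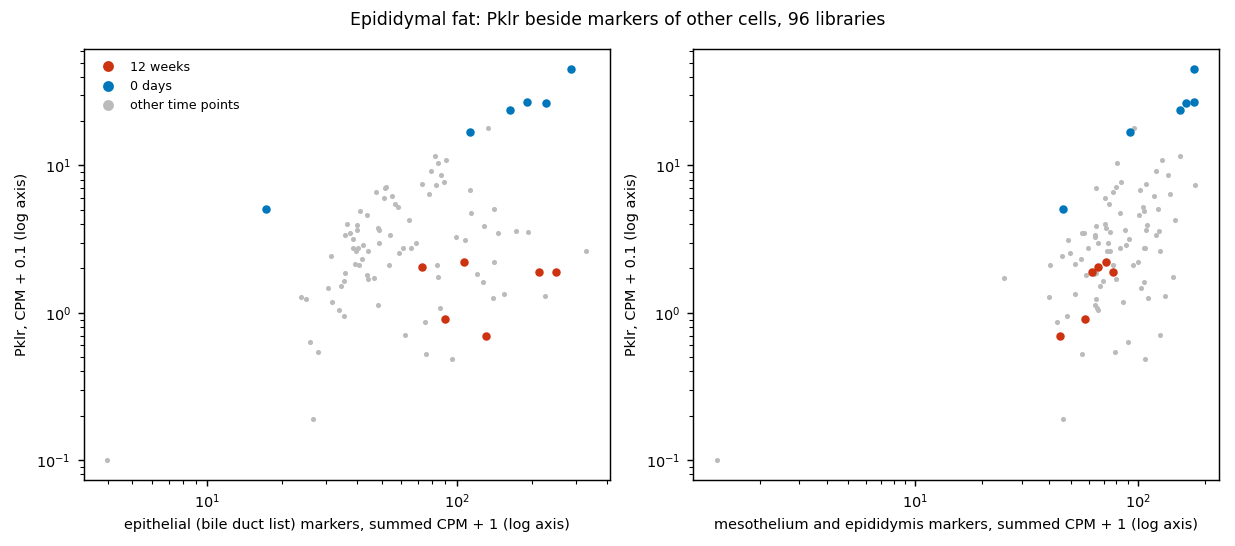
Pklr in the 96 libraries of epididymal fat (vertical axes, CPM plus 0.1, log scale) against the summed CPM plus 1 of the bile duct list (left, log scale) and of the mesothelium and epididymis list (right, log scale). The 12-week libraries (red) sit between 0.599 and 2.09 CPM of Pklr, and the 0-day libraries (blue) between 4.97 and 45.1 CPM, at marker sums that overlap between the 2 groups.

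In inguinal fat 7 of the 9 genes passed the filter, and 18 of 91 tests passed (22% of all gene tests there did). Pck1 fell from 5 weeks on and had 517 to 735 CPM at 12 weeks (median 587) against 1605 to 3760 CPM at 0 days (median 3067), a change of -2.26 ± 0.28 (adjusted p = 7.6e-10). Trib3 rose at 7 time points and at 12 weeks had 6.58 to 8.76 CPM (median 8.13) against 4.07 to 6.36 CPM at 0 days (median 5.16), again without overlap (0.63 ± 0.20, adjusted p = 0.0084), as for 37.7% of all genes. Irs1 fell at 12 weeks (-0.63 ± 0.25, adjusted p = 0.033), while Insr, Irs2 and Foxo1 did not pass then. At 12 weeks 3 of 7 genes passed, against 44.6% of all genes. Without the 11 inguinal fat libraries with high marker sums Foxo1 was also lower at 2, 6, 7, 8 and 10 weeks (-0.48 to -0.59), and 21 tests passed.

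Both calls of Fbp1 in inguinal fat, at 3 days and 8 weeks, rest on single libraries. It was higher at 3 days by 5.20 ± 1.12, through the library labelled inguinal fat, replicate 2, at 20.4 CPM against 0 to 0.669 CPM in the other 5 of that day. This is the library with epididymal markers, and without it the change was 1.39 ± 1.06 (adjusted p = 0.47), with the 3-day calls of Irs2 (-0.73, adjusted p = 0.13) and Trib3 (0.35, adjusted p = 0.31) lost as well. At 8 weeks the change of 3.04 (adjusted p = 0.024) came with 3.50 CPM in replicate 2 and 0.0833 to 0.424 CPM in the other 5 libraries, and without replicate 2 it was 1.39 ± 1.20 (adjusted p = 0.38). B cell markers in inguinal fat summed to 4.69 to 19 CPM at 12 weeks against 405 to 1302 CPM at 0 days, and skeletal muscle markers to 5787 to 26331 CPM at 12 weeks against 25.1 to 26662 CPM at 0 days; their part was not tested.

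Brown fat had 33 of 78 member tests called (19.3% of all gene tests), and all 6 genes tested passed at 12 weeks, where 27.6% of all genes did. Irs1 had 9.49 to 16.8 CPM at 12 weeks (median 13.4) and 19.7 to 74.2 CPM at 0 days (median 36.4), without overlap, a change of -1.72 ± 0.27 (adjusted p = 2.9e-07). Insr followed at -0.52 ± 0.08, with 74.8 to 82.9 CPM at 12 weeks (median 79.2) and 101 to 129 CPM at 0 days (median 114). Pck1 fell as well, to 3534 ± 348 CPM at 12 weeks, against 5332 ± 674 CPM at 0 days (-0.59 ± 0.19, adjusted p = 0.011).

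Irs2 and Foxo1 also fell in brown fat. Irs2 had 23.2 to 67.4 CPM at 12 weeks (median 50.4) and 49.9 to 323 CPM at 0 days (median 74.8), overlapping (-1.61 ± 0.46, adjusted p = 0.005). Foxo1 had 62.8 to 111 CPM at 12 weeks (median 94.2) and 93.8 to 282 CPM at 0 days (median 217), also overlapping (-1.12 ± 0.33, adjusted p = 0.0072). Foxo1 passed at 10 of 13 time points, from 1 week on except 10 days. Trib3 rose, at 10.6 to 26.2 CPM at 12 weeks (median 15.9) against 2.86 to 9.39 CPM at 0 days (median 6.25), without overlap (1.47 ± 0.36, adjusted p = 0.00096). Of the 6 genes, 4 did not overlap between the groups, where 20.7% of all genes tested in brown fat did not. Of 18 ATF4 targets tested in brown fat at 12 weeks 7 rose and 1 fell (14.4% and 13.2% of all genes did; median 0.55, against 0.00 over all genes), with Gdf15 at 5.50 ± 0.86, Mthfd2 at 1.35 ± 0.28, Atf4 at 0.89 ± 0.19 and Ddit3 at 0.87 ± 0.20. In the same libraries adipocyte markers summed to 11825 to 13515 CPM at 12 weeks against 15200 to 17475 CPM at 0 days, and endothelium markers to 646 to 769 CPM at 12 weeks against 425 to 578 CPM at 0 days, both without overlap; the brown adipocyte list overlapped, at 7937 to 10576 CPM at 12 weeks against 7890 to 12434 CPM at 0 days. Their part in the members' changes was not tested. Without the 8 brown fat libraries with high marker sums 29 member calls were made, those of Irs2 and Pck1 at 7 weeks, Irs2 at 8 weeks and Pck1 at 10 weeks being lost.

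Muscle gave few calls. In gastrocnemius 12 of 78 member tests passed (9.68% of all gene tests), all lower and 9 of them Pck1, and 1 of 6 genes at 12 weeks (5.94% of all genes). Pck1 had 1.08 to 5.11 CPM at 12 weeks (median 2.93) and 3.40 to 59.3 CPM at 0 days (median 8.4), a change of -2.44 ± 0.52 (adjusted p = 0.00065). The highest value was that of replicate 2, the library with the adipocyte and B cell signal; adipocyte markers in the other 5 libraries summed to 224 to 285 CPM. Without it the 12-week change was -1.35 ± 0.48 and did not pass (adjusted p = 0.088), and Pck1 did not pass at 2 to 6 weeks either; member calls over all time points then numbered 7. Without all 7 gastrocnemius libraries with high marker sums, which include replicate 2 and 1 library at 12 weeks, it was -1.40 ± 0.42 and passed (adjusted p = 0.017), while the calls at 2, 3 and 4 weeks were lost. Irs1 had 42.9 to 64.4 CPM at 12 weeks (median 61.4) and 66.4 to 111 CPM at 0 days (median 78), without overlap as for 11.4% of all genes, but its change of -0.49 ± 0.28 did not pass (adjusted p = 0.36; 0.0097 in a fit of the 2 groups alone).

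In soleus no member passed against 0 days at any single time point: 0 of 78 tests by edgeR (1 at an unadjusted p under 0.05) and 0 by DESeq2 (3 at an unadjusted p under 0.05), where 1.23% of all gene tests in soleus passed. In edgeR's F test over all time points 1 of 6 passed, Pck1 (adjusted p = 0.021; 6.75% of all genes), which averaged 10.5 ± 11.3 CPM at 3 days and 2.08 ± 0.977 CPM at 12 weeks, against 4.87 ± 2.84 CPM at 0 days. Brown adipocyte markers in soleus ran from 232 to 11459 CPM over the 84 libraries, and their part was not tested. At 12 weeks 0 of 6 genes passed (3.88% of all genes), and 0 of 6 had groups that did not overlap (3.04% of all genes). The libraries were uneven, with TMM factors of 0.329 to 1.37 and 13 of 84 under 0.7, against 0.962 to 1.07 in liver. Insr ran from 14.7 to 143 CPM among the 6 libraries at 0 days, so small changes were not detectable at this spread.

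**Figure D4:**
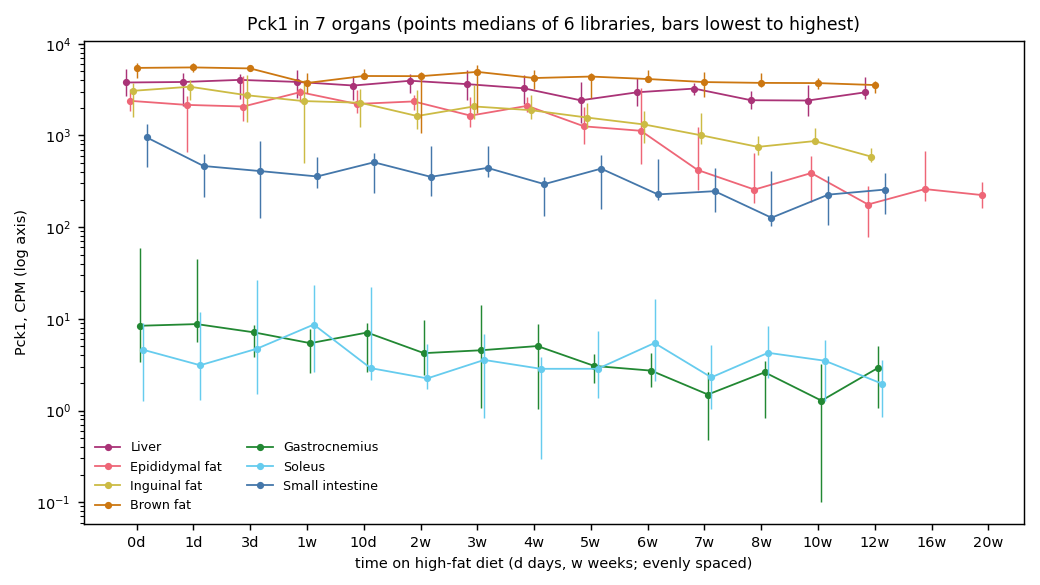
Pck1 in CPM (log scale) over time on the diet (evenly spaced) in 7 organs; points are medians of 6 libraries and bars run from the lowest to the highest. The median of epididymal fat stands at 177 CPM at 12 weeks and 2386 CPM at 0 days, while the medians of liver lie between 2403 and 4037 CPM at all 14 time points.

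In the small intestine 5 of 9 genes passed at 1 day (23.5% of all genes): Pklr and Fbp1 rose, and Pck1, Insr and Foxo1 fell. Over all time points 55 of 117 member tests passed (35.6% of all gene tests) and at 12 weeks 5 of 9 genes (38.9% of all genes). Pklr had 423 to 508 CPM at 1 day (median 453) against 313 to 364 CPM at 0 days (median 326), without overlap (0.46 ± 0.05), and rose at all 13 later time points, to 500 to 533 CPM at 12 weeks (median 522; 0.64 ± 0.05, adjusted p = 4.9e-17). Fbp1 likewise passed at all 13. It had 97.5 to 114 CPM at 1 day (median 109) and 85.9 to 106 CPM at 12 weeks (median 93), against 29.6 to 54.6 CPM at 0 days (median 43.8), changes of 1.29 ± 0.14 at 1 day and 1.09 ± 0.14 at 12 weeks. In the intestine Hcn3 averaged 114 ± 4.44 CPM at 12 weeks against 79.2 ± 6.46 CPM at 0 days.

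Pck1 went the other way in the small intestine. It had 137 to 394 CPM at 12 weeks (median 257) and 453 to 1327 CPM at 0 days (median 952), without overlap (-1.73 ± 0.37, adjusted p = 9.8e-05), and passed at 12 of 13 time points. G6pc, the enzyme of glucose release, averaged 58.3 ± 13.3 CPM at 12 weeks and 47.3 ± 10.8 CPM at 0 days (0.30 ± 0.18, adjusted p = 0.19). Insr fell at 9 time points and by 0.38 ± 0.06 on the log2 scale at 12 weeks (90 to 99.7 CPM, median 97.2, against 111 to 151 CPM at 0 days, median 123), and Irs2 by 0.24 ± 0.08 (adjusted p = 0.012). Of the 9 genes, 4 did not overlap between 12 weeks and 0 days, where 16.5% of all genes did not. Pancreatic acinus markers in these libraries summed to 115 to 2420 CPM at 12 weeks against 6063 to 15838 CPM at 0 days, and enterocyte markers to 41928 to 44559 CPM at 12 weeks against 31769 to 39437 CPM at 0 days; their part was not tested.

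Whether liver differed from another organ in its 12-week change was tested as an interaction in one edgeR fit of both organs. Against epididymal fat 6 of 9 genes differed (47.1% of all genes did): Pklr by 5.00 ± 0.59, Fbp1 by 4.52 ± 0.61, Pck1 by 3.56 ± 0.42, G6pc by 2.78 ± 0.54, Irs1 by 1.62 ± 0.27 and Foxo1 by 0.77 ± 0.32 (adjusted p = 0.039), all less negative or more positive in liver. Without replicate 1 of 0 days in epididymal fat the same 6 differed; Foxo1 did not pass with no filter (adjusted p = 0.050) or without the least correlated libraries (0.61, adjusted p = 0.125). Insr (0.40 ± 0.20, adjusted p = 0.091) and Irs2 (-0.11 ± 0.36, adjusted p = 0.86) did not pass. Against small intestine 2 of 9 differed (27% of all genes): Fbp1, whose change was smaller in liver (-0.71 ± 0.16, adjusted p = 0.00016), and Pck1 (1.48 ± 0.43, adjusted p = 0.0049), while for Pklr the difference of 0.34 ± 0.22 did not pass. Against gastrocnemius Pck1 alone of 6 genes passed (2.15 ± 0.53, adjusted p = 0.0016), where 15.4% of all genes did. It did not pass without the least correlated libraries (0.70, adjusted p = 0.29) or without replicate 2 of 0 days (1.07, adjusted p = 0.15). Nor did it pass without all libraries with high marker sums (1.10, adjusted p = 0.061).

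Within liver, libraries of one time point differed among themselves in a shared way. After each gene's log2 CPM was taken relative to its time-point mean, 8 of 36 pairs of members passed a permutation test over the 84 libraries (100000 permutations within time points, two-sided, Benjamini-Hochberg over 36 pairs). Pairs of other liver genes were not tested, so no share over all genes stands beside this count. Pck1 and Foxo1 were closest, with r = 0.76 and Spearman's rho = 0.74 (p = 1e-05 for both, the smallest these permutations can give; adjusted p = 0.00036), r = 0.73 without the 2 libraries farthest from the median of Pck1, and a positive r in 14 of 14 time points. Libraries with more Foxo1 than others of their day thus also had more Pck1. Irs2 ran against Foxo1 (r = -0.48, adjusted p = 0.0014; rho = -0.42, adjusted p = 0.0042; r = -0.44 without the 2 farthest libraries; negative in 12 of 14 time points). Insr ran with it (r = 0.45, adjusted p = 0.0018; rho = 0.46, adjusted p = 0.002; r = 0.41 without the 2 farthest). Irs2 and Trib3 varied together (r = 0.42, adjusted p = 0.0022; rho = 0.37, adjusted p = 0.008; r = 0.34 without the 2 farthest). With the mean of each replicate number also removed, r was 0.71 for Pck1 with Foxo1, -0.14 for Irs2 with Foxo1, 0.19 for Insr with Foxo1 and 0.21 for Irs2 with Trib3, and only the first of these 4 still passed. For Foxo1 with G6pc r was 0.01 and for Pck1 with G6pc 0.10, and neither passed.

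**Figure D5:**
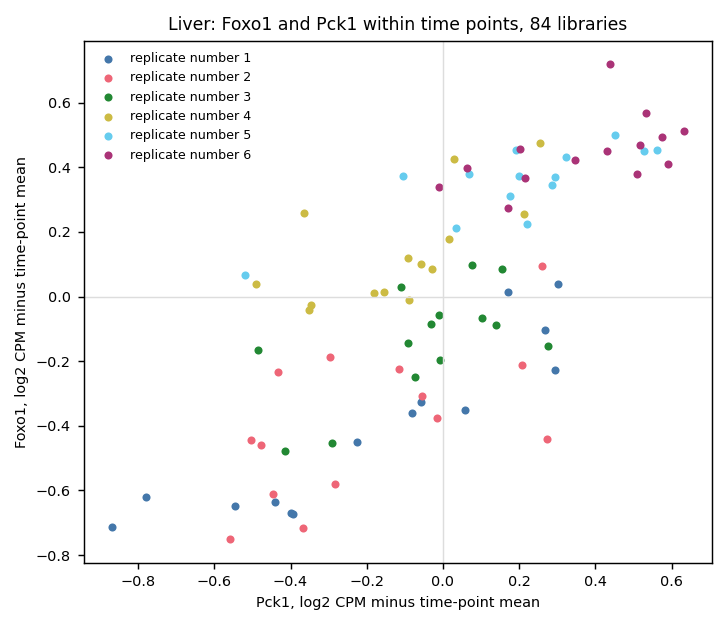
Foxo1 (vertical axis) against Pck1 (horizontal axis) in the 84 liver libraries, both as log2 CPM minus the mean of their time point; colours give the replicate number of the label. The points run from lower left to upper right (r = 0.76), with replicate number 6 mostly at the upper right.

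The genes whose log2 CPM came closest to each member over the 84 liver libraries were ranked by Pearson's r among 9331 genes with a mean of at least 5 CPM, as a description. For Pklr these were Hcn3 (0.97), Tkfc (0.83), a kinase of fructose breakdown, and Aacs (0.82). For Pck1 they were Tat (0.85), the tyrosine aminotransferase induced by glucocorticoids, Slc25a51 (0.83) and Ell2 (0.82), and for Foxo1 Shld2 (0.86), Rhbdd2 (0.86) and Il6ra (0.84). Fbp1 was followed by Tmem120a (0.79) and Echdc3 (0.77), Insr by Ncor1 (0.73), Marchf6 (0.72) and Il6st (0.69), and Irs2 by Tcp11l2 (0.72), Cecr2 (0.70) and Setd1b (0.69). The closest were weaker for Trib3 (Cyp3a25, 0.65), Irs1 (Rnf43, 0.62) and G6pc (Pdhb, 0.51).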

How the data were processed

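Each library was prepared from poly(A) RNA of 1 organ of 1 mouse with a strand-specific kit, per the labels' protocols, and labels gave organ, time point and replicate. The deposited values were whole-number counts per gene symbol, with no normalization. The submitters' processing notes name HISAT2 2.1.0 and featureCounts 1.6.3, beside Trimmomatic 0.38, SAMtools 1.9 and FastQC 0.11.7, and the build GRCm38 (mm10). For the annotation and the strand setting, nothing is stated in the sources used here.

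For each of 7 organs all time points were fitted together with edgeR 4.0.16 in R 4.3.3 (filterByExpr, TMM, quasi-likelihood test, Benjamini-Hochberg over all genes of a comparison, threshold 0.05), with 1 mean per time point. The SE is the log2 change divided by the square root of F. Levels are CPM with TMM factors, except across the 13 organs, where library totals were used. The 9 genes and all lists were chosen with earlier results of these data known; the list genes named are taken from the 4 with the smallest p, and some of these are not reported here. Alternatives were DESeq2 1.42.0 and its size factors, no filter, a replicate block, the 2 groups alone, and fits that dropped, from every time point, the library least correlated with the others; fits without single libraries, and without those with high marker sums, were added after seeing the data. On simulated liver counts with known changes the test recovered 73.1%, 88.1% and 98.5% of 1.5-, 2- and 4-fold changes at 12 weeks (12592 genes, 1.14% of calls false). On simulated gastrocnemius counts it recovered 25.4%, 80.6% and 95.5% (13104 genes, 4.29% false). Only 67, 67 and 66 genes were changed by these folds, while 42% of liver genes were called in the data. Counts were drawn independently, without differences by replicate number or high marker sums, so these shares need not hold for the real libraries.

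Libraries of a time point are from separate mice, and no label ties numbers across organs or days. No 2 libraries of a group agreed within sampling noise (chi-square per degree of freedom of at least 3.01). In the edgeR tests of change, p-values set differences between time-point means against the spread of libraries within time points. Differences by replicate number are part of that spread. Day of dissection cannot be told apart from time point. Promoters came from RefSeq (GRCm38.p6).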

Additional observations from a re-analysis of the deposited data

Results flagged for a closer look

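Among 221 groups of 6 libraries, 10 held 1 library far from the other 5; chance picks about 1 in 20 groups. In liver these were Trib3 at 1 day (2.38 CPM in replicate 4, others 6.57 to 8.57), G6pc at 1 week (892 CPM in replicate 2, others 383 to 484), Trib3 at 1 week (16.4 CPM in replicate 1, others 3.8 to 6.26) and Insr at 12 weeks (171 CPM in replicate 6, others 143 to 149). In fat, Insr stood apart in epididymal fat at 12 weeks (59.5 CPM in replicate 4, others 89.9 to 110) and in inguinal fat at 0 days (67.7 CPM in replicate 1, others 111.6 to 142), and Foxo1 in brown fat at 12 weeks (62.8 CPM in replicate 1, others 90.1 to 111). In gastrocnemius at 12 weeks replicate 2 was low for both Insr (63.2 CPM, others 79.6 to 90.9) and Irs1 (42.9 CPM, others 59.8 to 64.4). In soleus at 0 days replicate 1 was high for Trib3 (6.72 CPM, others 2.04 to 2.76) with TMM factors, which went down to 0.329 in soleus. By library totals the same 6 libraries had 2.20 to 3.05 CPM, so none was high for Trib3 before this scaling.

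The 12-week change of 9 genes and organs differed from that of liver in the interaction test of edgeR. Liver minus epididymal fat gave 5.00 for Pklr, 4.52 for Fbp1, 3.56 for Pck1, 2.78 for G6pc, 1.62 for Irs1 and 0.77 for Foxo1. Liver minus gastrocnemius gave 2.15 for Pck1, and liver minus small intestine 1.48 for Pck1 and -0.71 for Fbp1.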

How the results depend on the processing

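Of 704 alternative values of 102 single results, 670 kept their direction and their side of the threshold, 19 lost the threshold, 2 gained it and 13 turned; for counts and summaries 173 stayed within 1.5 times and 10 did not. The turned values were all of changes that did not pass. In liver Foxo1 turned at 12 weeks (-0.15 without the least correlated libraries). Against 1 week G6pc turned (0.020 with the replicate block), as did Trib3 (-0.0080 without the least correlated libraries). In epididymal fat at 20 weeks Trib3 turned to -0.023 with DESeq2's size factors and with DESeq2, and to -0.0095 with no filter. It was -0.081 without the least correlated libraries and -0.025 without 0-day replicate 1, against 0.0057 without 3-day replicate 2, which did not turn. In gastrocnemius Foxo1 turned (-0.039 without 0-day replicate 2, -0.16 without libraries with high marker sums), with its interaction at 0.096 and 0.20. The interaction of G6pc with small intestine, -0.23 ± 0.32, turned to 0.053 without the least correlated libraries. Counts that moved were genes at 12 weeks in gastrocnemius (2824 in a fit of the 2 groups alone, 1446 higher and 1378 lower, and 1782 without libraries with high marker sums, against 779) and soleus (205 in a fit of the 2 groups alone and 914 without libraries with high marker sums, against 508), soleus genes at any time (5435 without the least correlated libraries, 2466 with DESeq2 and 1790 without libraries with high marker sums, against 884), gastrocnemius member calls (5 without the least correlated libraries and 7 without 0-day replicate 2, against 12) and liver pairs (3 without the least correlated libraries, against 8). The cause was not tested.

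Replicate numbers were not taken as pairs, since no label ties them and not every pair of same-numbered libraries at 12 weeks and 0 days had a correlation of deviations over 0.1: 3 of 6 did in liver (-0.059 to 0.2) and 3 of 6 in soleus (-0.57 to 0.81), and 0 to 2 in the other organs. Over all pairs of time points, same-numbered libraries had a higher mean correlation than other-numbered ones in each organ. In liver it was 0.073 against -0.015, in gastrocnemius 0.087 against -0.0043 and in epididymal fat 0.023 against -0.00065. Some levels thus went with the number, as given among the other observations. With the replicate block, member calls were 27 in liver (23 without), 71 in epididymal fat (69), 39 in brown fat (33), 21 in inguinal fat (18), 14 in gastrocnemius (12), 57 in small intestine (55) and 0 in soleus (0). Reads were few for Trib3 (783 in liver and 775 in epididymal fat over 6 libraries at 0 days) and for G6pc outside liver and intestine. The part of depth in their results was not tested.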

Other observations

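Within time points, some member levels went with the replicate number of the label, which was noticed after seeing the data and has no stated meaning. In an edgeR F test across the 6 numbers, with time points in the fit, 12 of 52 tests of a member in an organ passed: 4 of 9 in liver, 2 of 9 in epididymal fat, 2 of 6 in brown fat, 2 of 6 in gastrocnemius, 2 of 9 in small intestine and none of 7 in inguinal fat and of 6 in soleus. Among all genes 19.4%, 2.83%, 2.64%, 25.7%, 7.39%, 1.5% and 0.397% passed in these organs in turn, and Pklr, G6pc, Fbp1 and Insr passed in none. The 5 smallest adjusted p were these: Foxo1 passed in liver (adjusted p = 1.1e-17) and brown fat (adjusted p = 6.9e-17), Pck1 in small intestine (adjusted p = 2e-11), Irs1 in brown fat (adjusted p = 4.3e-09) and Irs2 in liver (adjusted p = 8.6e-07). The mean log2 deviation of liver Foxo1 was -0.41 in libraries numbered 1 and 0.45 in those numbered 6, below the time-point mean in 12 and above it in 14 of 14 time points. In brown fat it was -0.75 and 0.50 (14 and 13 of 14), and for small intestine Pck1 -0.80 and 0.64 (14 and 14 of 14). Beside these, the clock gene Nr1d1 had 0.66 and -0.33 in liver and 0.31 and -0.07 in brown fat. Arntl had 0.53 and -0.32 in liver and 0.77 and -0.36 in brown fat. In small intestine the values were smaller, with Nr1d1 at 0.18 and -0.09 and Arntl at 0.19 and -0.18. In gastrocnemius Nr1d1 had 0.37 and -0.48 and Arntl 0.06 and -0.08. Tat, a glucocorticoid target, had -0.62 and 0.62 in liver but went the other way in small intestine, with 0.26 and -0.34. The part of clock time was not tested.

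Fbp1 in epididymal fat at 3 weeks was at 97 CPM in replicate 2 and 0.29 to 13.3 CPM in the other 5 libraries.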
